A study of Homo sapiens with 9 samples.

Results

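Long transcription units, here genomic intervals whose ends lie at least 100 kb apart, were followed in MDA-MB-231 cells after knockdown of CTDP1. Members were the intervals on chromosomes 1 to 22 with a span of 100 kb or more and at least 1 TPM in 3 or more of the 9 libraries. TPM is transcript abundance corrected for transcript length, with a fixed sum per library. Intervals inside a window on the long arm of chromosome 5 were left out. This gave 2371 members among the 55527 intervals of the series, of which 15011 passed the same TPM filter. By span, 1490 members covered 100-200 kb, 636 covered 200-400 kb and 245 covered over 400 kb. For comparison, 3558 autosomal intervals of 10-30 kb passed the filter, and these were weighted so that they had the same distribution of mean TPM as the long intervals.

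The groups were 3 libraries with the hairpin shCTDP1-#1, 3 with shCTDP1-#2 and 3 with the scrambled hairpin shScr. MDA-MB-231 is a human triple-negative breast cancer line. All cells carried a lentiviral short hairpin RNA and had been selected with puromycin, so the controls share the infection and the selection. Hairpins lower a target's messenger RNA without deleting the gene; nothing in the labels ties the libraries of a group to separate cultures, so the spread behind the p-values is that of these libraries alone and may be technical. Gene names are not paired with the intervals, and the annotation at hand is of another build, so intervals are given by their hg19 position, and neither the level of CTDP1 nor that of markers of the cell line was analysed here.

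CTDP1, also called FCP1, dephosphorylates the C-terminal domain of the large subunit of RNA polymerase II, a tail whose phosphorylation changes as the polymerase starts, elongates and terminates. Most of a long gene is intron, so the polymerase must travel far before the last exon is made, and factors that keep it processive or that suppress early polyadenylation in introns matter most for such genes. RNA sequencing of total messenger RNA reads the steady level of the finished transcript and not the passage of the polymerase.

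Between 14376 and 14699 intervals reached 1 TPM in the knockdown libraries, against 13637 to 13753 in the shScr libraries. Mitochondrial intervals took 1.64% to 2.28% of the TPM in the knockdown libraries, and 4.47%, 1.119% and 1.66% in shScr replicates 1, 2 and 3. Over the tested intervals, Pearson's r of the log2 values was 0.988 to 0.990 within groups and 0.947 to 0.971 across them. TPM keeps no read count, and sequencing depth is therefore unknown here.

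The longer the interval, the less often it was detected and the lower its level. Of 4084 autosomal intervals of 100 kb or more outside the window on chromosome 5, 2371 passed the filter, which is 58.1%. The share was 61.6% at 100-200 kb, 56.2% at 200-400 kb and 46% over 400 kb. Among intervals of 10-30 kb it was 46.1%, so long intervals as a whole were detected more often than these. The mean TPM over the 9 libraries had a median of 17.8 at 100-200 kb, 12.7 at 200-400 kb and 7.49 over 400 kb, against 24.2 for the 10-30 kb intervals. Intervals with a mean under 4 TPM made up 15.8%, 20.8% and 35.1% of the 3 long classes in the same order. TPM is scaled by transcript length, not by the distance between the ends of the interval. The cause of the lower level in longer classes was not tested. Of the 2371 members, 2124 reached 1 TPM in all 9 libraries. In 10 members the 3 libraries that reached 1 TPM were those of shCTDP1-#1 alone, in 6 those of shCTDP1-#2 alone and in 8 those of shScr alone; these had to differ between groups. A further measure of this selection is that 87 members (3.67%) reached 1 TPM in no shScr library, all of them with a mean under 4 TPM.

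Long intervals took a larger share of the transcripts in the knockdown libraries. Their summed TPM was 7.22%, 7.23% and 7.61% of the library with shCTDP1-#1, and 7.57%, 7.53% and 7.68% with shCTDP1-#2, against 6.97%, 7.05% and 6.83% with shScr. All 6 knockdown libraries exceeded the 3 of shScr, also within each span class. The class over 400 kb held 0.365% ± 0.018 of the TPM with shCTDP1-#1, 0.371% ± 0.005 with shCTDP1-#2 and 0.344% ± 0.008 with shScr (SD, n = 3 each). With the mitochondrial intervals left out of the total, all long intervals together held 7.50% with shCTDP1-#1, 7.74% with shCTDP1-#2 and 7.12% with shScr. On that scale the class over 400 kb overlapped, with 0.358% in the lowest shCTDP1-#1 library and 0.363% in the highest shScr library. The 10-30 kb intervals took 26.0% ± 0.1 with shCTDP1-#1, 26.4% ± 0.1 with shCTDP1-#2 and 25.6% ± 0.4 with shScr, also higher in each knockdown library than in each shScr library. In bulk samples, fewer cells with a transcript and less of it per cell cannot be told apart.

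**Figure D1:**
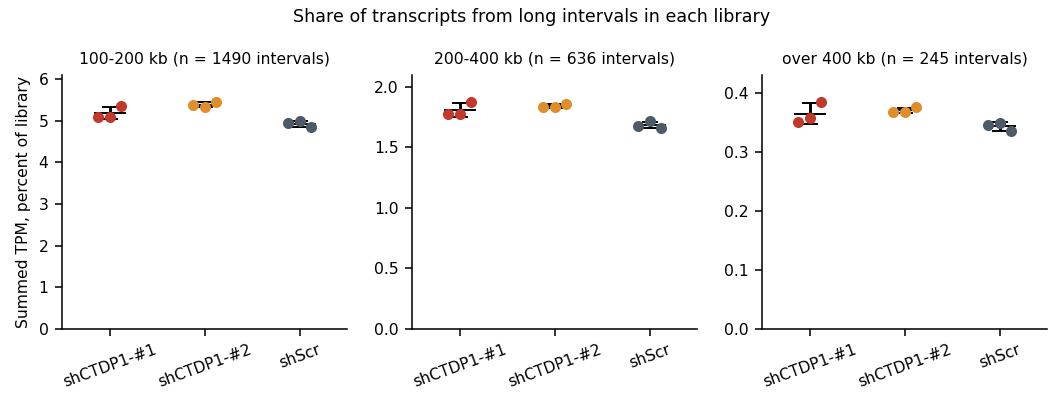
Summed TPM of the long intervals as a percent of the library (y axis, from 0) in the shCTDP1-#1, shCTDP1-#2 and shScr libraries, for the 3 span classes; points are libraries, bars mark the mean ± SD of 3. All 6 knockdown libraries lie above the 3 shScr libraries in each class.

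More long intervals also reached 1 TPM after knockdown. Of the 4084 long intervals of any level, 2302 to 2312 reached it with shCTDP1-#1 and 2295 to 2322 with shCTDP1-#2, against 2256 to 2261 with shScr. As a share this was 56.5% ± 0.1 and 56.6% ± 0.3 with the hairpins and 55.3% ± 0.1 with shScr (SD, n = 3 each). Among the 10-30 kb intervals of any level the share was 45.2% ± 0.2 and 45.4% ± 0.1 with the hairpins and 43.0% ± 0.2 with shScr. In both sets each knockdown library lay above each shScr library.

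With shCTDP1-#1, long intervals moved in both directions. limma's moderated test of log2(TPM + 1), fitted over all 15011 intervals with a Benjamini-Hochberg adjusted p under 0.05, called 796 long intervals higher and 664 lower than with shScr, and left 911 uncalled, where 63.1% of all tested intervals were called in either direction. That is 33.6% and 28% of the members, against 35.4% higher and 27.7% lower over all tested intervals. The 10-30 kb intervals of the same level had 37% higher and 28.6% lower. After median-of-ratios scaling the balance turned, with 709 long intervals higher and 742 lower. That scaling also moved the median change of all tested intervals, from 0.070 to 0.015. Their split of calls after it is not given here. By span, 503 rose and 433 fell at 100-200 kb, 224 rose and 170 fell at 200-400 kb, and 69 rose and 61 fell over 400 kb. In the class over 400 kb the risen share was 28.2% and the fallen share 24.9%, where 10-30 kb intervals of the same level had 36.5% and 24.1%. These shares lay within a few points of the background, apart from the risen share over 400 kb, which was lower.

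With shCTDP1-#2, 841 long intervals rose, 571 fell and 959 were not called, where 64% of all tested intervals were called in either direction. The shares were 35.5% and 24.1% of the members. Over all tested intervals 39.5% were higher and 24.6% lower, and the 10-30 kb intervals of the same level had 42.1% higher and 24.7% lower. The risen share was 37.9% at 100-200 kb, 32.7% at 200-400 kb and 28.2% over 400 kb, so it was lower in each longer class, while the fallen shares were 24.3%, 23.3% and 24.9%. The comparisons of the hairpins with shScr share the 3 shScr libraries. Of the called long intervals, 59.6% were higher with shCTDP1-#2. Over all tested intervals, 5923 were called higher and 3689 lower. After median-of-ratios scaling, which moved the median change of all tested intervals from 0.13 to 0.013, 45.9% of the called long intervals were higher. The split of calls over all tested intervals after this scaling is not given here.

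The median change of the long intervals was small and lay below that of 10-30 kb intervals of the same level. With shCTDP1-#1 the median log2 change was 0.045 at 100-200 kb, 0.059 at 200-400 kb and 0.029 over 400 kb, against 0.074, 0.091 and 0.13 for 10-30 kb intervals weighted to the level of each class and 0.070 over all tested intervals. With shCTDP1-#2 it was 0.093, 0.057 and 0.042 in the 3 classes, against 0.15, 0.18 and 0.21 for the weighted 10-30 kb intervals and 0.13 over all tested intervals. The sign of these small medians rests on the scaling: after median-of-ratios scaling the median of all long intervals was -0.0029 with shCTDP1-#1 and -0.043 with shCTDP1-#2, against 0.031 and 0.043 for the 10-30 kb intervals. The difference between long and 10-30 kb medians was -0.028, -0.033 and -0.11 with shCTDP1-#1, and -0.057, -0.12 and -0.16 with shCTDP1-#2, in order of span. These differences rest on the intervals chosen for comparison: with shCTDP1-#1, against intervals of 30-100 kb of the same level they were 0.035, 0.042 and -0.0082, and with 1 TPM in all 9 libraries the value at 200-400 kb was 0.017. With shCTDP1-#2 they were -0.00061, -0.042 and -0.081 against intervals of 30-100 kb. The middle of each class was wide: over 400 kb, the quartiles of the log2 change were -0.35 and 0.39 with shCTDP1-#1 and -0.29 and 0.39 with shCTDP1-#2. No test of the lists was made, since the members were chosen with results of these data known.

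The per-library values show how far this shift stands above the spread between libraries. For each library, the median deviation of an interval's log2(TPM + 1) from its mean over the 9 libraries was taken for the long intervals, and that of the 10-30 kb intervals of the same level was subtracted. For all long intervals the result was -0.0062, -0.028 and 0.048 with shCTDP1-#1, and -0.061, -0.050 and -0.022 with shCTDP1-#2, against 0.024, 0.046 and 0.0042 with shScr. All shCTDP1-#2 libraries lay below all shScr libraries, whereas the shCTDP1-#1 and shScr libraries overlapped. Over 400 kb it was -0.011, -0.047 and 0.026 with shCTDP1-#1, and -0.12, -0.057 and -0.074 with shCTDP1-#2, against 0.060, 0.12 and 0.079 with shScr. There, both knockdown groups lay below shScr without overlap. Much of this spread between groups was in the subtracted 10-30 kb intervals, whose deviations reached 0.11 with shCTDP1-#2 and -0.12 with shScr. With 1 TPM in all 9 libraries, the difference between long and 10-30 kb medians over 400 kb was -0.038 with shCTDP1-#1 and -0.058 with shCTDP1-#2.

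shCTDP1-#1 replicate 3 stood apart from the other libraries of its group in the long intervals. The median deviation of all long intervals was -0.020, -0.023 and 0.066 in shCTDP1-#1 replicates 1, 2 and 3, while the 10-30 kb intervals of the same level gave -0.014, 0.0056 and 0.019. Without this library, 692 long intervals were called higher and 640 lower with shCTDP1-#1, and the difference between long and 10-30 kb medians was -0.068 instead of -0.036 for all members. For 100-200 kb it was -0.061 and for 200-400 kb -0.067. In shCTDP1-#2 against shCTDP1-#1, that difference was -0.026 without this library and -0.054 with it. Other libraries also moved the value of the 200-400 kb class with shCTDP1-#1, to -0.0040 without shCTDP1-#1 replicate 2, -0.011 without shCTDP1-#1 replicate 1 and -0.0056 without shScr replicate 1. For all long intervals it was -0.018 without shCTDP1-#1 replicate 2, and for 100-200 kb -0.013.

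**Figure D2:**
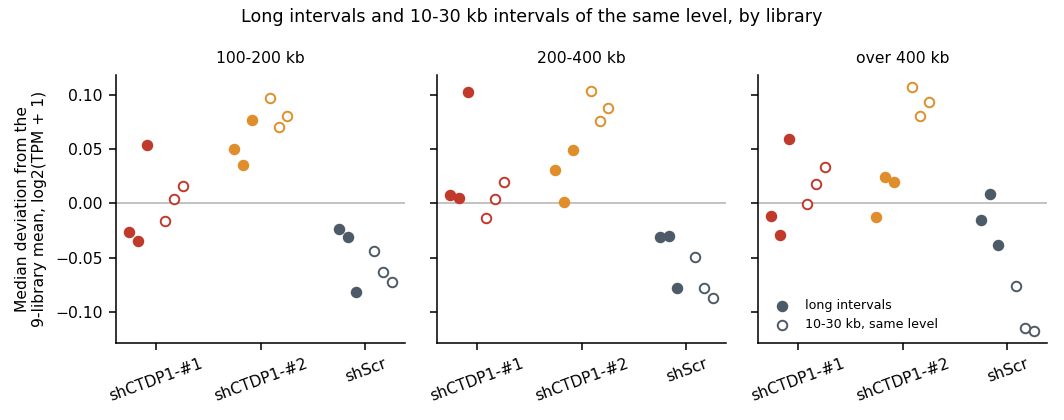
Median deviation from the 9-library mean, log2(TPM + 1), in each library of shCTDP1-#1, shCTDP1-#2 and shScr: filled points are long intervals, open points 10-30 kb intervals weighted to the same level. Over 400 kb the filled points of the groups lie close together, between -0.038 and 0.060, while the open points range between 0.11 with shCTDP1-#2 and -0.12 with shScr.

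Within bands of mean TPM, the long intervals lay below the 10-30 kb intervals in the bands of low level. Under 4 TPM, the median log2 change with shCTDP1-#1 was 0.051 for 453 long intervals and 0.30 for 625 intervals of 10-30 kb. With shCTDP1-#2 it was 0.081 and 0.38. At 4-16 TPM the medians were 0.028 and 0.069 with shCTDP1-#1, and 0.00044 and 0.17 with shCTDP1-#2, again with the long intervals (790) below the 10-30 kb ones (800). At 16-64 TPM the medians of the long intervals (854) and the 10-30 kb ones (1213) were close, with 0.033 and 0.026 under shCTDP1-#1 and 0.11 and 0.096 under shCTDP1-#2. At 64 TPM or more the order turned: 274 long intervals had medians of 0.14 and 0.18 with the hairpins, and 920 intervals of 10-30 kb had 0.069 and 0.11. Low medians were not particular to long intervals. Intervals of 30-100 kb had 0.19 and 0.24 under 4 TPM, between the other sets. At 4-16 TPM they had -0.019 and 0.097, with the shCTDP1-#1 value below that of the long intervals. At 16-64 TPM they had -0.022 and 0.059, below both sets. The larger share of the library that long intervals took with the hairpins is a sum over all levels, and the part of each band in it was not tested.

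The filter on low values touches the lowest band. Under 4 TPM, 19.2% of the long intervals and 25.4% of the 10-30 kb intervals reached 1 TPM in no shScr library, so they had passed through the knockdown libraries. Among intervals with 1 TPM or more in all 9 libraries, the medians under 4 TPM were -0.042 for 212 long and 0.067 for 213 short intervals with shCTDP1-#1, and -0.021 and 0.13 with shCTDP1-#2. The long intervals stayed below, with a narrower gap. Over all levels, the difference between long and 10-30 kb medians under this stricter filter was -0.0019 with shCTDP1-#1 and -0.046 with shCTDP1-#2.

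Within the long set, span itself went with little of the change. Across the 2371 members, Spearman's rho between span and log2 change was 0.013 with shCTDP1-#1 and -0.042 with shCTDP1-#2. Across 13849 autosomal tested intervals of any span, rho was -0.081 and -0.084, and within the bands of level it ran between -0.087 (under 4 TPM) and 0.0041 (64 TPM or more) with shCTDP1-#1. With shCTDP1-#2 the same bands gave -0.13 and 0.049. These correlations are across intervals of the same libraries, which are not independent, and span also went with a lower level and with more overlapping intervals, whose part in them was not tested.

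**Figure D3:**
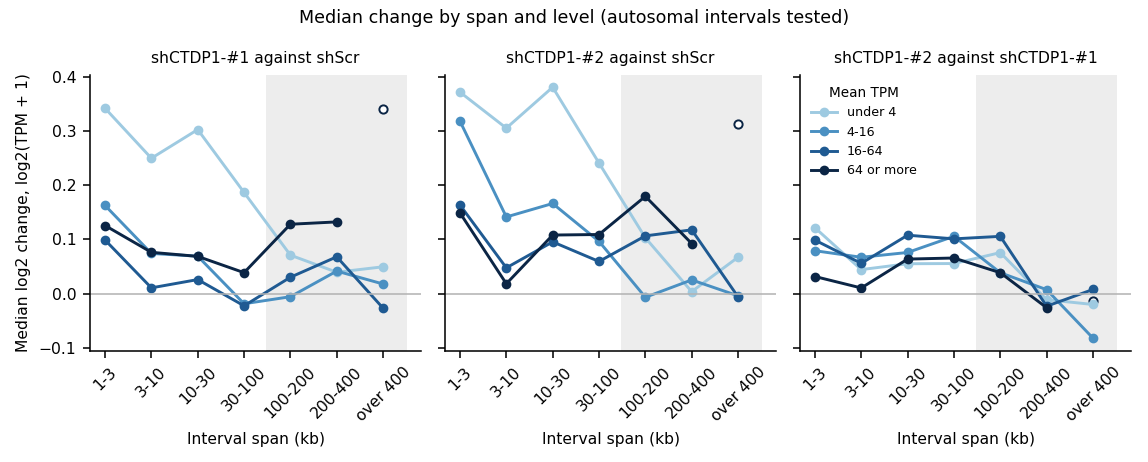
Median log2 change, log2(TPM + 1), by span (x axis, kb) in 4 bands of mean TPM (lines), for shCTDP1-#1 against shScr, shCTDP1-#2 against shScr, and shCTDP1-#2 against shCTDP1-#1; the grey area marks 100 kb or more and open points hold fewer than 20 intervals. In the comparisons with shScr, the line of intervals under 4 TPM is the highest of the 4 at 10-30 kb (0.30 and 0.38 with the hairpins) and the lowest at 200-400 kb (0.040 and 0.0038). Between the hairpins this line is the lowest at 10-30 kb (0.055).

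Large changes were rarer among long intervals. With shCTDP1-#1, 107 called long intervals rose and 82 fell by a log2 change of 1 or more, which is 4.51% and 3.46% of the members. Over all tested intervals 7.22% rose and 4.2% fell by as much, and 10-30 kb intervals of the same level gave 8.41% and 5.15%. With a pseudocount of 0.1 TPM the shares of the long intervals were 7.55% and 5.4%, and the 10-30 kb intervals then had 12.7% and 7.09%. With shCTDP1-#2, 121 rose and 39 fell by as much, 5.1% and 1.64%, against 8.44% and 2.31% over all tested intervals and 10.7% and 2.85% for 10-30 kb intervals of the same level. Median-of-ratios scaling gave a fallen share of 2.78% with shCTDP1-#2 and a pseudocount of 0.1 TPM gave 3.46%, and the 10-30 kb intervals then had 4.5% and 4.12%. In the class over 400 kb the risen shares were 4.9% (12 intervals) and 3.67% (9 intervals) with the hairpins, where 10-30 kb intervals of that level gave 10.6% and 12.8%.

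The same was seen within each band of level, apart from falls under 4 TPM with shCTDP1-#1. At 16-64 TPM, 3.04% of the long intervals rose by at least 1 and 2.34% fell by as much with shCTDP1-#1, against 4.78% and 5.36% of the 10-30 kb intervals. With shCTDP1-#2 the values were 3.75% and 0.82%, against 7.91% and 2.39%. The falls under 4 TPM with shCTDP1-#1 made up 3.75% of the long and 1.76% of the 10-30 kb intervals. The order of the shares over all members stayed the same after upper-quartile or median-of-ratios scaling, with a pseudocount of 0.1 TPM and with the filter of 1 TPM in all 9 libraries; under that filter it was 3.3% and 3.3% of the long against 6.1% and 5.57% of the 10-30 kb intervals with shCTDP1-#1. In the class over 400 kb the falls with shCTDP1-#2 turned, with 6.94% of the long and 4.7% of the 10-30 kb intervals at a pseudocount of 0.1 TPM and 4.08% and 3.55% after upper-quartile scaling. In shCTDP1-#2 against shCTDP1-#1 the falls of that class also turned at a pseudocount of 0.1 TPM, narrowly, with 3.27% and 3.12%. The median standard error of the log2 change was close in both sets, 0.10 for the long and 0.096 for the 10-30 kb intervals of the same level. The median absolute change was 0.36 for long intervals and 0.41 for the 10-30 kb ones with shCTDP1-#1, and 0.34 and 0.41 with shCTDP1-#2.

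**Figure D4:**
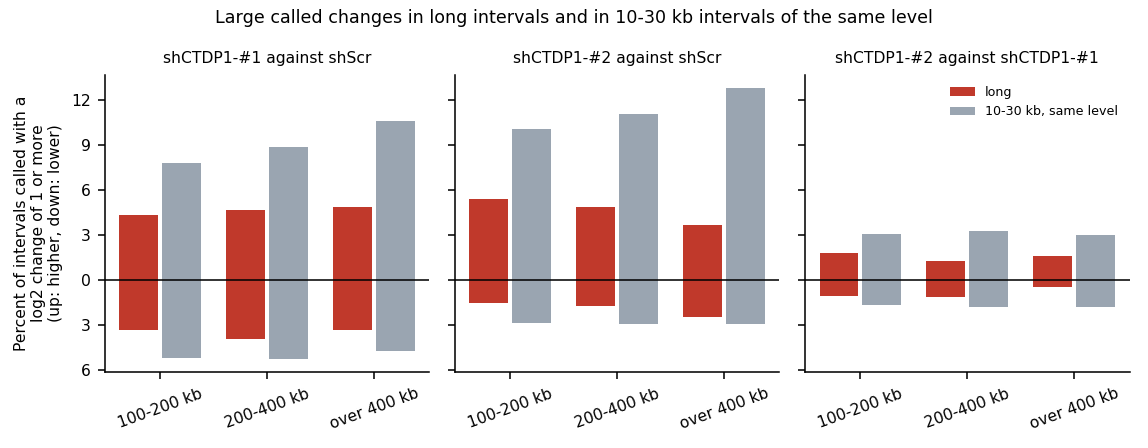
Percent of intervals called with a log2 change of 1 or more, higher above the axis and lower below it, for long intervals (red) and 10-30 kb intervals weighted to the same level (grey) in the 3 comparisons. The red bars are shorter than the grey ones in every class and direction, as in the class over 400 kb with shCTDP1-#2, where 3.67% rose against 12.8%.

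The hairpins were also compared with each other. In shCTDP1-#2 against shCTDP1-#1, 620 long intervals were higher, 482 lower and 1269 not called, where 50.2% of all tested intervals were called in either direction. The shares were 26.1% and 20.3% of the members, against 30.2% and 20% over all tested intervals and 31.8% and 18.9% of the 10-30 kb intervals of the same level. At 100-200 kb, 427 were higher and 280 lower, at 200-400 kb 142 were higher and 158 lower, and over 400 kb 51 were higher and 44 lower. After median-of-ratios scaling these counts were 358 and 366, 119 and 192, and 39 and 54 in order of span, so the balance at 100-200 kb and over 400 kb rests on the scaling. The median log2 difference was 0.069 at 100-200 kb, -0.010 at 200-400 kb and -0.024 over 400 kb, against 0.089, 0.088 and 0.074 for 10-30 kb intervals of the same level. At 200-400 kb the long median lay below the 10-30 kb median in each of the 4 bands of level, at -0.011, 0.0074, -0.023 and -0.026 from the lowest band up, against 0.055, 0.076, 0.11 and 0.064. Without shCTDP1-#1 replicate 3 the class of 200-400 kb turned, with 141 higher, 127 lower and a median of 0.015, and the difference between long and 10-30 kb medians at 100-200 kb was -0.0027. After median-of-ratios scaling 45.7% of the called long intervals were higher with shCTDP1-#2, and 56.3% with TPM as deposited. Over all tested intervals, 4535 were called higher and 3003 lower with TPM as deposited. Their median difference moved from 0.066 to 0.0021 with the scaling, and their split of calls after it is not given here. Large differences between the hairpins were few, with 39 long intervals higher and 23 lower by a log2 value of 1 or more, 1.64% and 0.97% of the members, against 2.51% and 1.38% over all tested intervals.

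The intervals named next led their span class in the smaller of their changes with both hairpins, among those called in the same direction with both, with a mean of at least 5 TPM and with knockdown and shScr libraries that do not overlap. That the groups of these intervals do not overlap follows from the rule. In the class of 100-200 kb the leading rise was at chr16:84853590-84954374, a span of 100784 bases. It had 63.98, 66.77 and 74.98 TPM with shCTDP1-#1, and 51.3, 49.2 and 52.5 TPM with shCTDP1-#2, against 5.81, 6.07 and 5.65 TPM with shScr. The log2 change was 3.34 with shCTDP1-#1 and 2.93 with shCTDP1-#2 (SE 0.067 each, limma adjusted p = 2.5e-10 and 6.0e-10). It was the largest rise of any long interval with either hairpin. The second was at chr1:46505812-46642160, with 31.4 ± 2.8 TPM with shCTDP1-#1 and 34.3 ± 1.6 TPM with shCTDP1-#2, against 4.59 ± 0.39 TPM with shScr (SD, n = 3 each). Its log2 changes were 2.53 and 2.66, with limma adjusted p-values of 4.0e-09 and 3.8e-09.

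The leading fall at 100-200 kb was at chr15:69222864-69355083. It had 2.51, 3.15 and 2.31 TPM with shCTDP1-#1, and 4.80, 4.98 and 4.71 TPM with shCTDP1-#2, against 13.2, 15.6 and 15.7 TPM with shScr. It fell by 2.12 and 1.44 on the log2 scale (SE 0.11 each, limma adjusted p = 1.1e-07 and 1.8e-06). All 3 groups were apart here, with shCTDP1-#1 lowest. The next was at chr3:37903451-38025960, where shCTDP1-#2 was lowest: 10.8 ± 0.8 TPM with shCTDP1-#1 and 7.75 ± 1.34 TPM with shCTDP1-#2, against 26.6 ± 1.9 TPM with shScr. Its log2 changes were -1.23 and -1.66 (limma adjusted p = 6.2e-06 and 7.0e-07).

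At 200-400 kb, the leading rise was at chr11:34172535-34379555. It had 53.1, 53.3 and 57.7 TPM with shCTDP1-#1, and 57.4, 51.6 and 59.8 TPM with shCTDP1-#2, against 15.6, 18.8 and 15.9 TPM with shScr. The log2 changes of 1.65 and 1.69 (SE 0.080 each, limma adjusted p = 5.0e-08 and 4.9e-08) were nearly the same with both hairpins, with a difference between them of 0.039 (adjusted p = 0.71). At chr2:23608088-23931481, the mean was 36.8 ± 2.2 TPM with shCTDP1-#1 and 33.5 ± 2.3 TPM with shCTDP1-#2, against 13.3 ± 1.1 TPM with shScr, with log2 changes of 1.41 and 1.28 (limma adjusted p = 1.2e-07 and 2.6e-07).

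The leading fall at 200-400 kb was at chr11:108535752-108811657. It had 42.6, 46.2 and 41.3 TPM with shCTDP1-#1, and 40.8, 41.2 and 39.7 TPM with shCTDP1-#2, against 123, 121 and 126 TPM with shScr. This gave log2 changes of -1.49 and -1.58 (SE 0.050 each, limma adjusted p = 4.3e-09 and 3.7e-09), and the libraries of a group were close to each other. The second, at chr10:94590935-94819250, was noisy. It had 6.81, 9.19 and 3.01 TPM with shCTDP1-#1, and 7.48, 11.6 and 5.92 TPM with shCTDP1-#2, against 37.0, 13.9 and 24.8 TPM with shScr. Its log2 changes were -1.84 and -1.43 (SE 0.44 each, limma adjusted p = 0.0063 and 0.020). The call with shCTDP1-#2 was lost without shScr replicate 1 (adjusted p = 0.055), shScr replicate 3 (0.055), shCTDP1-#2 replicate 1 (0.060) or shCTDP1-#2 replicate 3 (0.070).

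Over 400 kb, the leading rise was at chr14:34393437-34931980, a span of 538543 bases. Its levels were 15.8, 17.6 and 16.5 TPM with shCTDP1-#1, and 19.2, 20.7 and 18.9 TPM with shCTDP1-#2, against 3.42, 5.13 and 4.89 TPM with shScr. The changes on the log2 scale were 1.70 and 1.92 (SE 0.12 each, limma adjusted p = 7.0e-07 and 2.9e-07), and the hairpins' libraries were all above those of shScr. At chr6:152442819-152958936, the levels were 15.9, 14.2 and 21.1 TPM with shCTDP1-#1, and 16.2, 15.8 and 17.9 TPM with shCTDP1-#2, against 6.88, 5.24 and 5.57 TPM with shScr. The log2 changes were 1.38 and 1.36 (limma adjusted p = 1.0e-05 and 1.2e-05).

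The falls that led the class over 400 kb were smaller than those of the shorter classes. This class has fewer members to choose from, 245 against 636 and 1490, and those with a mean under 5 TPM could not lead. Among all its members the lowest log2 changes were -1.59 with shCTDP1-#1 and -1.47 with shCTDP1-#2. At chr1:41972036-42501596, the levels were 9.34, 10.0 and 11.8 TPM with shCTDP1-#1, and 8.50, 7.44 and 9.61 TPM with shCTDP1-#2, against 17.6, 17.2 and 16.9 TPM with shScr. The log2 changes were -0.69 and -0.94 (limma adjusted p = 2.2e-04 and 2.2e-05). At chr8:31496902-32622548, an interval of 1125646 bases, the levels were 33.2, 34.2 and 32.7 TPM with shCTDP1-#1, and 31.7, 27.7 and 29.7 TPM with shCTDP1-#2, against 53.6, 56.7 and 50.1 TPM with shScr. Its log2 changes were -0.66 and -0.83 (SE 0.064 each, limma adjusted p = 7.2e-06 and 1.5e-06).

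**Figure D5:**
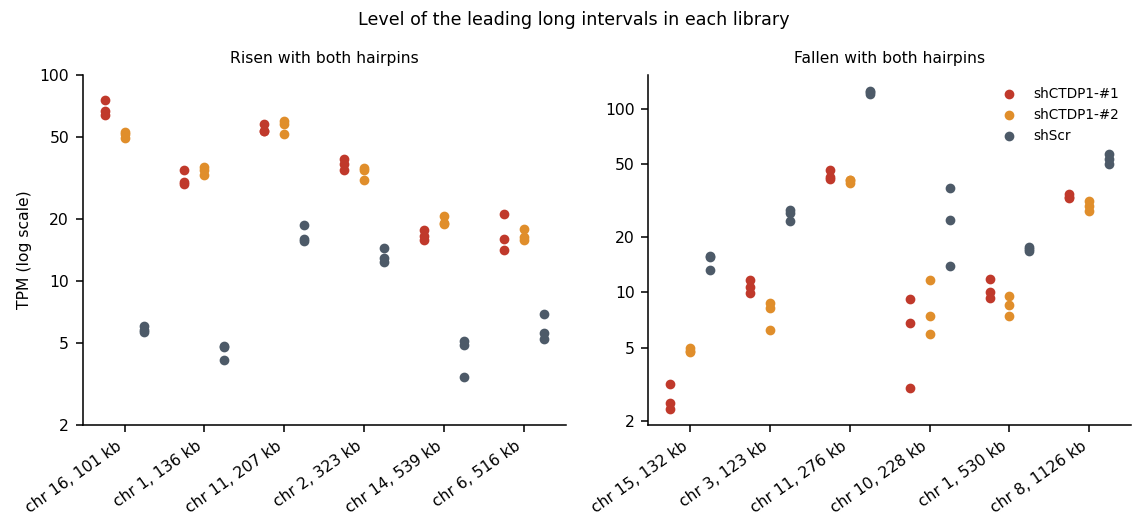
TPM (log scale) of the leading intervals per span class in each library of shCTDP1-#1, shCTDP1-#2 and shScr, labelled by chromosome and span; risen intervals are on the left and fallen ones on the right, and that the groups do not overlap was required by the rule. The chromosome 10 interval of 228 kb is the most spread, with 13.9 to 37.0 TPM in shScr.

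The most abundant long intervals were changed in both directions. The highest level in the set was at chr10:33189247-33294720. It had 1250, 1242 and 1321 TPM with shCTDP1-#1, and 1474, 1516 and 1424 TPM with shCTDP1-#2, against 721, 758 and 709 TPM with shScr. It rose by 0.80 and 1.01 on the log2 scale (limma adjusted p = 4.5e-08 and 1.2e-08), and the groups did not overlap. At chr12:21788276-21910791, the next in level, the mean was 701 ± 17 TPM with shCTDP1-#1 and 663 ± 4 TPM with shCTDP1-#2, against 955 ± 37 TPM with shScr. It fell by 0.45 and 0.53 on the log2 scale (limma adjusted p = 1.3e-06 and 4.2e-07). 

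At 200-400 kb, the interval at chr8:109213445-109447562 had 640 ± 17 and 613 ± 19 TPM with the hairpins in order of number, against 797 ± 25 TPM with shScr, and fell by 0.32 and 0.38 (limma adjusted p = 2.6e-05 and 7.0e-06). At chr4:80822303-81046608 all 3 groups were apart, with 498, 493 and 557 TPM with shCTDP1-#1, and 834, 827 and 841 TPM with shCTDP1-#2, against 296, 310 and 297 TPM with shScr. It rose by 0.77 and 1.47 on the log2 scale (limma adjusted p = 2.0e-07 and 3.7e-09). Over 400 kb, the interval at chr7:1855429-2272878 rose to 167 ± 8 and 216 ± 16 TPM with the hairpins, against 132 ± 6 TPM with shScr (log2 changes 0.34 and 0.71, limma adjusted p = 4.3e-04 and 2.2e-06). At chr10:75910960-76469061 the level was 154 ± 6 and 153 ± 3 TPM with the hairpins, against 131 ± 6 TPM with shScr (log2 changes 0.23 and 0.22, limma adjusted p = 9.7e-04 and 0.0014). The call of this interval with shCTDP1-#2 was lost after median-of-ratios scaling (adjusted p = 0.13).

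The 3 longest members differed in what they did. The longest, at chr20:13976015-16033842, spans 2057827 bases and had 0.89, 1.15 and 1.71 TPM with shCTDP1-#1, and 2.70, 1.59 and 1.42 TPM with shCTDP1-#2, against 1.52, 1.41 and 0.59 TPM with shScr. The groups overlapped, and neither log2 change, 0.063 and 0.42 (SE 0.24 each), passed the test (limma adjusted p = 0.83 and 0.15). The second, at chr6:64429876-66417118, had 1.08, 1.35 and 1.66 TPM with shCTDP1-#1, and 0.73, 1.72 and 0.82 TPM with shCTDP1-#2, against 0.30, 0.26 and 0.10 TPM with shScr. It rose by 0.95 and 0.75 (limma adjusted p = 0.0023 and 0.0091), but as no shScr library reached 1 TPM it had entered the set through the knockdown libraries. The third, at chr5:58264865-59817947, had 8.71, 6.71 and 8.60 TPM with shCTDP1-#1, and 8.05, 7.17 and 7.32 TPM with shCTDP1-#2, against 13.7, 13.2 and 12.4 TPM with shScr, and fell by 0.66 and 0.73 (limma adjusted p = 2.9e-04 and 1.3e-04).

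In some long intervals the hairpins moved the level to opposite sides of shScr. The 4 named here lead among members with a mean of at least 5 TPM called in opposite directions, and all 4 lie in the class of 100-200 kb. At chr1:157963063-158070052, the levels were 62.4, 66.2 and 72.4 TPM with shCTDP1-#1, and 21.9, 18.5 and 21.4 TPM with shCTDP1-#2, against 39.9, 47.0 and 39.2 TPM with shScr. The log2 changes were 0.66 and -0.99 (limma adjusted p = 8.9e-05 and 4.5e-06). At chr10:62629196-62761198, the mean was 8.92 ± 0.91 TPM with shCTDP1-#1 and 3.25 ± 0.26 TPM with shCTDP1-#2, against 5.53 ± 1.22 TPM with shScr, with log2 changes of 0.62 and -0.60 (limma adjusted p = 0.0037 and 0.0043). The other two had shCTDP1-#2 on top. At chr6:108362613-108487058, the levels were 17.9, 16.5 and 17.4 TPM with shCTDP1-#1, and 79.7, 73.0 and 64.7 TPM with shCTDP1-#2, against 25.5, 25.3 and 28.5 TPM with shScr. The log2 changes were -0.59 and 1.42 (limma adjusted p = 9.5e-05 and 1.5e-07). At chr15:52244303-52358462, the mean was 19.3 ± 1.4 TPM with shCTDP1-#1 and 65.1 ± 1.6 TPM with shCTDP1-#2, against 41.7 ± 1.4 TPM with shScr, with log2 changes of -1.08 and 0.63 (limma adjusted p = 1.2e-07 and 6.1e-06).

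The values of the members nearest the limit of 100 kb, and of the intervals just below it, are given as a description. Just inside it, an interval of 100073 bases at chr17:4067201-4167274 had 32.9 ± 1.7 and 27.0 ± 1.3 TPM with the hairpins, against 21.7, 19.97 and 18.3 TPM with shScr. One of 100104 bases at chr12:1797740-1897844 had 41.5 ± 0.9 and 62.4 ± 2.5 TPM, against 41.5 ± 0.3 TPM with shScr. Just outside it, one of 99997 bases at chr13:52026503-52126500 had 3.203 ± 0.861 and 3.13 ± 0.46 TPM, against 0.967 ± 0.276 TPM with shScr. One of 99985 bases at chr4:41992489-42092474 had 53.2 ± 3.4 and 57.6 ± 3.1 TPM, against 54.0 ± 2.8 TPM with shScr.

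Long intervals commonly contain or cross other deposited intervals. A member overlapped a median of 2 others at 100-200 kb, 3 at 200-400 kb and 4 over 400 kb, and at most 21, whereas a 10-30 kb interval overlapped a median of 1. Only 323 members (13.6%) overlapped none, and 222 (9.36%) overlapped another member. The library kit, TruSeq RNA v2, does not mark the strand of origin, so reads in overlapping exons could be divided between intervals, and those levels are uncertain. Among the members with no overlap, 107 rose and 84 fell with shCTDP1-#1 (33.1% and 26%), and 109 rose and 86 fell with shCTDP1-#2 (33.7% and 26.6%). These shares were close to those of the 2048 members with an overlap, at 33.6% and 28.3% with shCTDP1-#1, and 35.7% and 23.7% with shCTDP1-#2. Over all tested intervals they were 35.4% and 27.7% with shCTDP1-#1, and 39.5% and 24.6% with shCTDP1-#2.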

How the data were processed

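RNA was sequenced from 9 MDA-MB-231 libraries. STAR, RSEM and the hg19 build are named per the submitters' processing notes, with no version, counting option or annotation given in the sources used here. Each deposited file lists 57773 intervals with a value taken as TPM, since every library reaches the total of that unit; no depth is kept, and 2 decimals limit low values. Files were joined on coordinates, and 2246 rows with coordinates found more than once were dropped, 10 of them autosomal and over 100 kb. Span is column 3 minus column 2; 1 member overlaps the edge of the window left out on chromosome 5 without lying in it. log2(TPM + 1) was fitted with limma 3.58.1 (trend, robust; R 4.3.3, statmod 1.5.0) over all 15011 intervals with 1 TPM or more in 3 libraries, in 1 fit of group means with 6 residual degrees of freedom. Fold changes on this scale understate those of low intervals. The 10-30 kb intervals were weighted by bands of 0.25 log2 units of mean TPM over the 9 libraries, and a weighted median was taken. The fit and the weighting were checked on simulated data.

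Intervals were named by rule: per span class and direction the 2 with the largest smaller change of both hairpins, the 2 most abundant per class, the 3 longest, 2 in each order of opposite calls, and 2 on each side of the 100 kb limit. The members, classes and rules were chosen with earlier results of these data known. GENCODE 29 is on GRCh38 and was not used. Between groups, residuals of libraries with the same number had correlations of -0.0066 to 0.053, and those with unlike numbers had -0.046 to 0.024. The labels do not say that the numbers mark pairs, so the main fit did not take them as pairs.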

Additional observations from a re-analysis of the deposited data

Results flagged for a closer look

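The following long intervals are listed because the hairpins had unlike changes by a limma test of the difference itself, shCTDP1-#2 minus shCTDP1-#1, adjusted over all 15011 intervals. In all, 620 long intervals were higher and 482 lower with shCTDP1-#2. That is 26.1% and 20.3% of the members, against 30.2% and 20% over all tested intervals. Of the intervals named in the report, the difference was widest on chromosome 6 from 108362613, where it was 2.01 on the log2 scale, and on chromosome 15 from 52244303, at 1.71. On chromosome 1 from 157963063 it was -1.66, and on chromosome 10 from 62629196 it was -1.22. These 4 were chosen for their opposite calls.

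Smaller differences were found on chromosome 4 from 80822303 (0.69), chromosome 15 from 69222864 (0.68), chromosome 12 from 1797740 (0.58), chromosome 7 from 1855429 (0.37) and chromosome 10 from 33189247 (0.21), all with shCTDP1-#2 higher. With shCTDP1-#2 lower, they were -0.44 on chromosome 3 from 37903451, -0.42 on chromosome 16 from 84853590 and -0.28 on chromosome 17 from 4067201. The degree of knockdown by each hairpin was not analysed here, so its part in these differences was not tested.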

How the results depend on the processing

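Counts of all long intervals called at any size of change stayed within 1.5 times their value except in the test against a fold change of 1.5, where shCTDP1-#1 had 136 risen and 113 fallen, shCTDP1-#2 had 146 risen and 63 fallen, and the contrast of the hairpins had 50 higher and 25 lower. When single libraries were dropped, shCTDP1-#1 had 692 to 786 risen and 571 to 663 fallen, shCTDP1-#2 had 760 to 844 risen and 494 to 578 fallen, and the contrast of the hairpins had 530 to 618 higher and 403 to 479 lower. Under the replicate block, shCTDP1-#1 had 784 risen and 649 fallen, shCTDP1-#2 had 825 risen and 557 fallen, and the contrast of the hairpins had 607 higher and 469 lower. The shares of all tested intervals called under these settings are not given here. These counts therefore show how far the calls moved, and not how long intervals compare with others. Residuals from the group means were also correlated between libraries of different groups. In 8 of the 9 libraries the highest of these correlations was with a library of the same number. Correlations between same-number libraries were low, from -0.0066 to 0.053. This hints at pairing from the data alone and not from the design. Shares called with a log2 change of 1 or more moved further with a pseudocount of 0.1 TPM, to 7.55% risen and 5.4% fallen with shCTDP1-#1, 7.51% and 3.46% with shCTDP1-#2, and 2.83% higher and 1.81% lower between the hairpins.

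The difference between long and 10-30 kb medians was the least stable value. With shCTDP1-#1 it was -0.0019 for all members and 0.017 at 200-400 kb and -0.038 over 400 kb with 1 TPM in all 9 libraries, and -0.026 over 400 kb with no filter. Set against intervals of 30-100 kb it was 0.038 for all members, and 0.035, 0.042 and -0.0082 in the classes by span, so the sign turned in all but the longest class. Among intervals with no overlap it was 0.049 at 200-400 kb and -0.36 over 400 kb, where only 11 remain. Leaving out each library gave -0.068 to -0.018 for all members, and -0.061 to -0.013, -0.067 to -0.0040 and -0.12 to -0.078 in the classes.

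With shCTDP1-#2 it was negative in each alternative printed here. With no filter it was -0.035 for all members and -0.025, -0.045 and -0.038 in the classes; with 1 TPM in all 9 libraries it was -0.046 for all, -0.074 at 200-400 kb and -0.058 over 400 kb. Against 30-100 kb it was -0.020 for all and -0.00061, -0.042 and -0.081 in the classes. With 1 nearest 10-30 kb interval per long one it was -0.15 at 200-400 kb, and with no overlap -0.049 for all, -0.040 at 200-400 kb and -0.25 over 400 kb.

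Between the hairpins, no filter gave -0.017 for all, -0.027 at 200-400 kb and -0.010 over 400 kb, and the nearest intervals gave -0.062 at 200-400 kb. With no overlap it was -0.14 at 200-400 kb and 0.049 over 400 kb, where the sign turned. Leaving out each library gave -0.069 to -0.026 for all and -0.13 to -0.081 at 200-400 kb. The cause of these moves was not tested.

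As a share of nuclear TPM, long intervals held 7.74% with shCTDP1-#2 and 7.12% with shScr, and by class 5.49% and 5.04%, 1.88% and 1.73%, and 0.378% and 0.353%. Unknown depth and 2 decimals limit what can be said under 4 TPM.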

Other observations

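Long intervals of some chromosomes stood apart from the rest; these chromosomes were chosen after their values were seen, and no test was made. On chromosome 17, 81 long intervals had median log2 changes of 0.19 with shCTDP1-#1 and 0.28 with shCTDP1-#2, against 0.042 and 0.10 for 240 intervals of 10-30 kb on that chromosome. There, 38 rose and 12 fell with shCTDP1-#1, and 43 rose and 12 fell with shCTDP1-#2, which is 46.9% and 53.1% higher, against 33.6% and 35.5% of all long intervals. Over all tested intervals 35.4% and 39.5% were higher. The fallen share was 14.8% with each hairpin, against 27.7% and 24.6% of all tested intervals. On chromosome 22, 13 of 30 long intervals rose and 2 fell with shCTDP1-#1, and 11 rose and 2 fell with shCTDP1-#2. That is 43.3% and 36.7% higher, against 35.4% and 39.5% of all tested intervals, so the risen share with shCTDP1-#2 was near the background. The medians of these 30 were 0.21 and 0.16, and 101 intervals of 10-30 kb on that chromosome had 0.15 and 0.14. On chromosome 19, 12 of 24 rose and 3 fell with shCTDP1-#1, and 12 rose and 8 fell with shCTDP1-#2. With shCTDP1-#1 this is 50% higher and 12.5% lower, against 35.4% and 27.7% of all tested intervals. With shCTDP1-#2 it is 50% and 33.3%, against 39.5% and 24.6%, so both shares were above the background. The median of these 24 was 0.31 with shCTDP1-#1 and 0.18 with shCTDP1-#2, against 0.18 and 0.24 for the 10-30 kb intervals of that chromosome. There the median difference between the hairpins was -0.23 for the long intervals and 0.064 for 430 intervals of 10-30 kb.

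Across the 22 autosomes, the median of the long intervals lay below that of the 10-30 kb intervals on 14 with shCTDP1-#1 and on 19 with shCTDP1-#2, without weighting for level. The medians of the long intervals ran between -0.032 and 0.31 with shCTDP1-#1 and between -0.035 and 0.28 with shCTDP1-#2.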
